A study of Mus musculus with 15 samples.

Results

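Taok1, Nufip2, Sox11 and Aff4 were examined as the genes whose 3′UTRs carried among the most peaks of Sfpq, a nuclear RNA-binding protein, in P19 cells. They were chosen by their count of Sfpq peaks annotated to the 3′UTR, each having 23 or more, out of 2221 genes with such a peak and 10668 genes with a peak of any kind. In all, 22 genes reached that count, so the 4 are named members of a group of 22 and not the whole of it. Their peaks in the 5 full lists numbered 284 of 75980. P19 is a mouse embryonal carcinoma line, and the maps were made by HITS-CLIP, in which protein is crosslinked to RNA with UV light, immunoprecipitated, and the bound RNA fragments sequenced.

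The libraries were 15, in 5 groups of 3 replicates, all of P19 cells transfected for 48 h. They were Ago2 CLIP of cells given both siSfpq and the let-7a mimic, of cells given the let-7a mimic, and of cells given siSfpq, then Sfpq CLIP of cells given siSfpq and of control cells. Ago2 is the Argonaute protein that carries miRNAs to their targets, siSfpq a pool of siRNAs that knocks down Sfpq, and the controls were a control siRNA (siCtr) and a control mimic. The control Ago2 libraries, of cells with both controls, were not analysed here except through their peak list, which the study's methods credit to an earlier HITS-CLIP report on P19 cells. Replicates had been merged before peaks were called, so no spread between replicates can be given and no test was made. Intervals given below are 95% Wilson intervals that cover counting error only, and peaks of a single gene are not independent of each other.

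Sfpq binds RNA and DNA with its RRM domains, works mostly in the nucleus with its relatives Nono and Pspc1, and can polymerise along nucleic acids. Argonaute-miRNA complexes pair with short matches to the miRNA seed, mostly in 3′UTRs, and proteins bound nearby can change which matches are used. The 4 genes have different roles. Taok1 encodes a STE20-family kinase that acts in stress-activated MAP kinase and Hippo signalling and on microtubules. Nufip2 encodes an RNA-binding protein that interacts with Fmrp, Sox11 a SoxC transcription factor of neuronal differentiation, and Aff4 the scaffold of the super elongation complex, which releases paused RNA polymerase II.

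Each of the 4 3′UTRs lies in a single exon of the RefSeq annotation of GRCm38 (mm10), the build of the peak lists. The longest annotated 3′UTR of Taok1 is chr11:77529162-77537866, on the minus strand and 8705 nt long. That of Nufip2 is chr11:77709736-77717966, on the plus strand and 8231 nt long. The 3′UTR of Sox11, a gene without introns, is chr12:27334268-27341220, on the minus strand and 6953 nt long, and that of Aff4 is chr11:53415516-53421830, on the plus strand and 6315 nt long. All 116 Sfpq peaks that the files assign to these 3′UTRs by gene symbol also lay there by position and strand, and no peak of the 5 lists lay there on the opposite strand.

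The Sfpq peaks were described first, with no test, since their number selected the genes. A Sfpq peak is a stretch that dCLIP, a program that compares CLIP signal between conditions, called as reduced with siSfpq against siCtr, with a score above the threshold of 7 set by the authors. Taok1 had 34 such peaks in its 3′UTR, Nufip2 31, Sox11 28 and Aff4 23. Over all genes with a Sfpq peak in the 3′UTR the median was 2, and 863 of the 2221 genes had 1. Just inside the limit, with 23 peaks like Aff4, were Elovl6 and Zmat3. Just outside it, with 22, were Abl2, Cpsf6, Ept1 and Nucks1, and genes with 21 included Celf1, Rlim and a gene whose symbol the workbooks hold as a date. The accession of that gene, NM_153178, is that of Ago2 in RefSeq. The 16 other genes at 24 or more were Zfp871 (34, as many as Taok1), Tet1 and Tnrc6b (28 each), Bend4, Cmtm4 and Il17rd (27 each), Lrrc58 and Ubxn7 (26 each), Etnk1, Mlec, Slc38a1, Ssr1 and Tead1 (25 each), and Dcp2, Igf2bp1 and Slc7a1 (24 each).

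**Figure D1:**
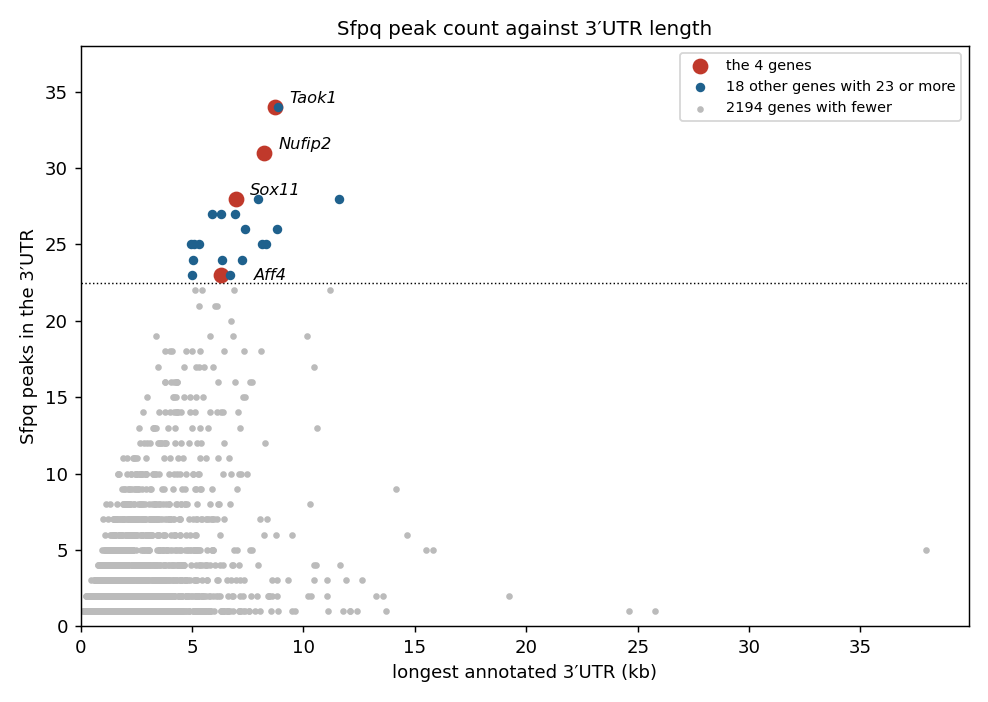
Number of Sfpq peaks in the 3′UTR (vertical axis) against the length of the longest annotated 3′UTR in kb (horizontal axis), 1 point per gene, with the limit of 23 peaks as a dotted line. The 4 genes sit at 23 to 34 peaks on 3′UTRs of 6315 to 8705 nt, within the cloud of long 3′UTRs and among 18 other genes at or above the limit.

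By count these genes stood near the top, but not by density. The 4 genes had 3.64 (Aff4) to 4.03 (Sox11) Sfpq peaks per kb of 3′UTR, against a median of 2.62 over the 523 genes that had at least 5 peaks and an annotated 3′UTR. In the order of peaks per kb among those 523, Sox11 was at place 72, Taok1 at 88, Nufip2 at 108 and Aff4 at 124, while Arhgdia, with 8 peaks on 1132 nt, led with 7.07 per kb. In the order of 3′UTR length Taok1 was at place 16, Nufip2 at 21, Sox11 at 42 and Aff4 at 60. The label of densest binding therefore held for the number of peaks on a transcript and not for peaks per length.

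The peaks nevertheless covered much of each 3′UTR. Sfpq peaks lay over 62.5% of the Nufip2 3′UTR (5144 nt), 55.7% of that of Aff4 (3515 nt), 51.9% of that of Taok1 (4517 nt) and 42.1% of that of Sox11 (2925 nt). The median over the 523 genes was 22.6% and over the 18 other genes at or above the limit 42.5%. By this measure Nufip2 was at place 23 of 523, Aff4 at 40, Taok1 at 52 and Sox11 at 84. Together 16101 of 30204 nt, or 53.3%, were under a Sfpq peak.

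The arrays began at or near the stop codon and stopped short of the end of each 3′UTR. The first peak of Taok1 and that of Nufip2 covered the first base after the stop codon, that of Aff4 began at base 10 and that of Sox11 at base 42. The last peak ended at base 8567 of 8705 in Taok1, 7684 of 8231 in Nufip2, 6311 of 6953 in Sox11 and 5689 of 6315 in Aff4. Cut into 3 equal parts from the stop codon, the 3′UTR of Taok1 held 12, 11 and 11 peaks by midpoint, that of Nufip2 13, 8 and 10, that of Sox11 10, 10 and 8, and that of Aff4 8, 6 and 9. Each gene thus had Sfpq peaks in all 3 parts. From the last bases given above to the end of the 3′UTR no Sfpq peak was listed.

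Neighbouring peaks were close. The median stretch between them was 65 nt in Taok1, 67.5 nt in Nufip2, 80 nt in Aff4 and 110 nt in Sox11. It was under 100 nt for 21 of 33 such stretches in Taok1, 22 of 30 in Nufip2, 15 of 22 in Aff4 and 13 of 27 in Sox11. The longest, 725 nt, lay at chr11:77529640-77530364 near the distal end of Taok1, and the longest in Nufip2, Sox11 and Aff4 were 440, 325 and 325 nt. An Ago2 peak inside such an array could hardly lie 500 nt or more from Sfpq, so the distance class "close" (under 500 nt) of the dismissed lists was set by the choice of these genes.

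Annotated ends differ for Taok1 and Aff4. The shortest annotated 3′UTR of Taok1 is 3477 nt long, and 20 of its 34 Sfpq peaks lay wholly past that end, as did 1 of 4 gained Ago2 peaks, 2 of 4 siSfpq Ago2 peaks and its single control Ago2 peak. The longer 3′UTR was therefore bound along the part that the shorter one lacks. The shortest annotated 3′UTR of Aff4 is 5721 nt long, and no Sfpq or Ago2 peak lay past it.

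The 4 arrays differed in the strength of their peaks more than in their number. In Taok1, with the most peaks, scores ran from 8 to 29 with a median of 12, the median of all 7985 Sfpq peaks in 3′UTRs. In Nufip2 they ran from 9 to 135 with a median of 22, in Sox11 from 8 to 78 with a median of 19.5, and in Aff4 from 9 to 60 with a median of 19. A score of 30 or more was reached by 8 of 31 peaks in Nufip2, 9 of 28 in Sox11, 5 of 23 in Aff4 and none of 34 in Taok1, against 7.24% of all Sfpq peaks in 3′UTRs. Among peaks with a score of 15 or more the order of the genes turned, with 14 in Taok1, 23 in Nufip2, 20 in Sox11 and 19 in Aff4, so Taok1 had the most peaks at the threshold of 7 and the fewest at 15.

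Peak lengths ran from 15 to 615 nt. The median was 120 nt in Taok1 and Aff4, 105 nt in Nufip2 and 82.5 nt in Sox11, against 70 nt for all Sfpq peaks in 3′UTRs. The longest, 615 nt at chr11:77713870-77714484, was in Nufip2 and had a score of 45. Aff4 had one of 535 nt at chr11:53418700-53419234 with a score of 30, while the longest of Taok1 (290 nt) and Sox11 (285 nt) had scores of 9 and 26.

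**Figure D2:**
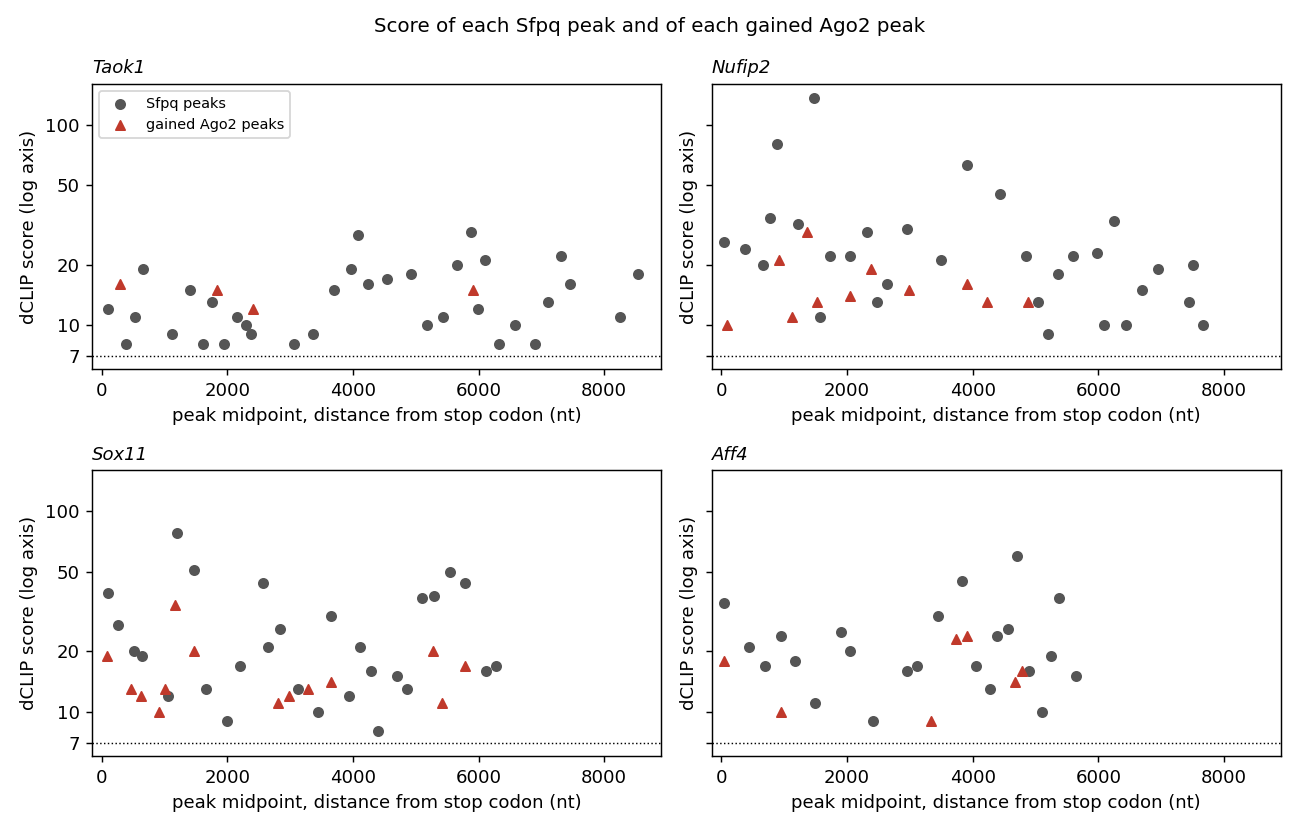
dCLIP score (log axis) of each Sfpq peak (circles) and each gained Ago2 peak (triangles) against the distance of its midpoint from the stop codon in nt, 1 panel per gene, with the threshold of 7 dotted. Sfpq scores reach 135 in Nufip2, 78 in Sox11 and 60 in Aff4 but stay at 29 or below in Taok1, and gained Ago2 peaks have scores of 9 to 34. The scores of both kinds come from different comparisons and are not on a common scale.

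The strongest Sfpq peak of each gene is shown by a stretch of 30 bases from it, the first one with the most of the words CUGU, CUGA and NUGUA, which the study derived as Sfpq motifs. Capitals mark these words on the transcribed strand, with T for U, in sequence from RefSeq GRCm38.p6.
Taok1 chr11:77531981-77532010 (minus strand): acaaagtgcaagtgtgttaatgtttATGTA
Nufip2 chr11:77711199-77711228 (plus strand): gcataaaaacaagttctctggcCTGATGTA
Sox11 chr12:27339978-27340007 (minus strand): CTGTtcttagtttaagaCTGTATGTACTGT
Aff4 chr11:53420205-53420234 (plus strand): gatacttggttttgaCTGTgctgcttCTGT

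These stretches differ in how many words they hold. The stretch of Sox11 has 3 words of the first kind (CUGU or CUGA) and 2 of the second (NUGUA), some of which overlap, that of Nufip2 has 1 of each, that of Aff4 has 2 of the first and none of the second, and that of Taok1 has 1 of the second only. The whole Nufip2 peak, with the highest score of the 4 genes (135), had 1 word of each kind in 90 nt, so a high score was not matched by many words there. The Sox11 peak (score 78) had 3 and 5 words in 130 nt.

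Over the whole 3′UTRs the words were slightly denser under the peaks than between them. The study derived the words from its Sfpq HITS-CLIP peaks, so a higher density under such peaks is no independent support for them. CUGU or CUGA occurred 1.22 times per 100 nt under Sfpq peaks and 0.886 times per 100 nt in the rest, a ratio of 1.37. Of 321 such words 196, or 61.1% (interval 55.6 to 66.2%), lay under peaks, beside 53.3% of the length. The ratio was above 1 in each gene, from 1.19 in Aff4 and 1.28 in Taok1 to 1.38 in Sox11 and 1.74 in Nufip2. By gene, the interval of the share of words under peaks lay above the covered share in Nufip2 only (64.0 to 82.6%, beside 62.5%). NUGUA occurred 0.776 times per 100 nt under the peaks and 0.645 times in the rest, a ratio of 1.20. Of 216 such words 125, or 57.9% (51.2 to 64.3%), lay under peaks, and that interval includes the 53.3% of the length. For NUGUA the ratio was 1.04 in Nufip2, 1.11 in Aff4, 1.14 in Taok1 and 1.64 in Sox11.

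These 3′UTRs were not rich in the words beyond others with Sfpq peaks. At least 1 CUGU or CUGA was in 79 of the 116 Sfpq peaks (68.1%), against 67.7% of all Sfpq peaks in 3′UTRs, and NUGUA in 59 (50.9%), against 44.9%. Per 100 nt of peak there were 1.22 words of the first kind and 0.775 of the second, against 1.58 and 0.868 in all. In windows of 100 nt laid along the 3′UTR, 188 of 301 (62.5%) had a word of the first kind and 142 (47.2%) one of the second, against 71.8% and 43.2% of 58295 windows over 2155 genes with a Sfpq peak. Words of the sense strand only were searched, and a word is no proof of a bound site.

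Ago2 peaks were then mapped against these arrays. In cells with both siSfpq and let-7a, the gained Ago2 peaks are those that dCLIP called as raised against let-7a alone. There were 14 in the 3′UTR of Sox11, 11 in Nufip2, 7 in Aff4 and 4 in Taok1. All 4 genes thus had at least 1, as did 49.8% of the 2221 genes with a Sfpq peak, and the counts ran from 0 to 21 with a median of 9 over the 18 other genes at or above the limit, which Il17rd led with 21. The 4 genes had a median of 9 as well.

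The Ago2-let-7a list comes from another comparison and holds peaks raised with the let-7a mimic against control cells. It had 5 peaks in the 3′UTR of Sox11, 4 in that of Aff4 and none in Taok1 or Nufip2, whereas 20.2% of all genes with a Sfpq peak had 1 or more. Both comparisons use the let-7a libraries, so their counts are set side by side only. The 36 gained against 9 Ago2-let-7a peaks give a ratio of 4 in the 4 genes, and the whole lists give 3.72 (3675 against 987 peaks in 3′UTRs). The pooled ratio stands for none of the genes alone, with 14 against 5 peaks in Sox11, 7 against 4 in Aff4, 11 against 0 in Nufip2 and 4 against 0 in Taok1. At scores of 15 or more the pooled counts were 17 against 1.

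Endogenous Ago2-miRNA peaks, in cells without the let-7a mimic, were listed by pyicoclip with a minimum of 10 reads. With siSfpq there were 10 in Nufip2, 8 in Sox11, 4 in Taok1 and 4 in Aff4, and in control cells none in Nufip2, 3 in Sox11, 1 in Taok1 and 2 in Aff4. At least 1 such peak was found with siSfpq in 4 of 4 genes, against 61.5% of the 2221 genes, and in control cells in 3 of 4, against 8.19%. Most of the 2221 genes have few Sfpq peaks. Of the 18 other genes at or above the limit, 18 had a siSfpq Ago2, 6 a control Ago2 and 14 an Ago2-let-7a peak. The siSfpq list was far longer in all, with 3981 against 338 peaks in 3′UTRs, a ratio of 11.8, and the 4 genes had 26 against 6, a ratio of 4.33. Read depth is not in the lists, so a count of reads in a peak was not compared between them as a level.

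**Figure D3:**
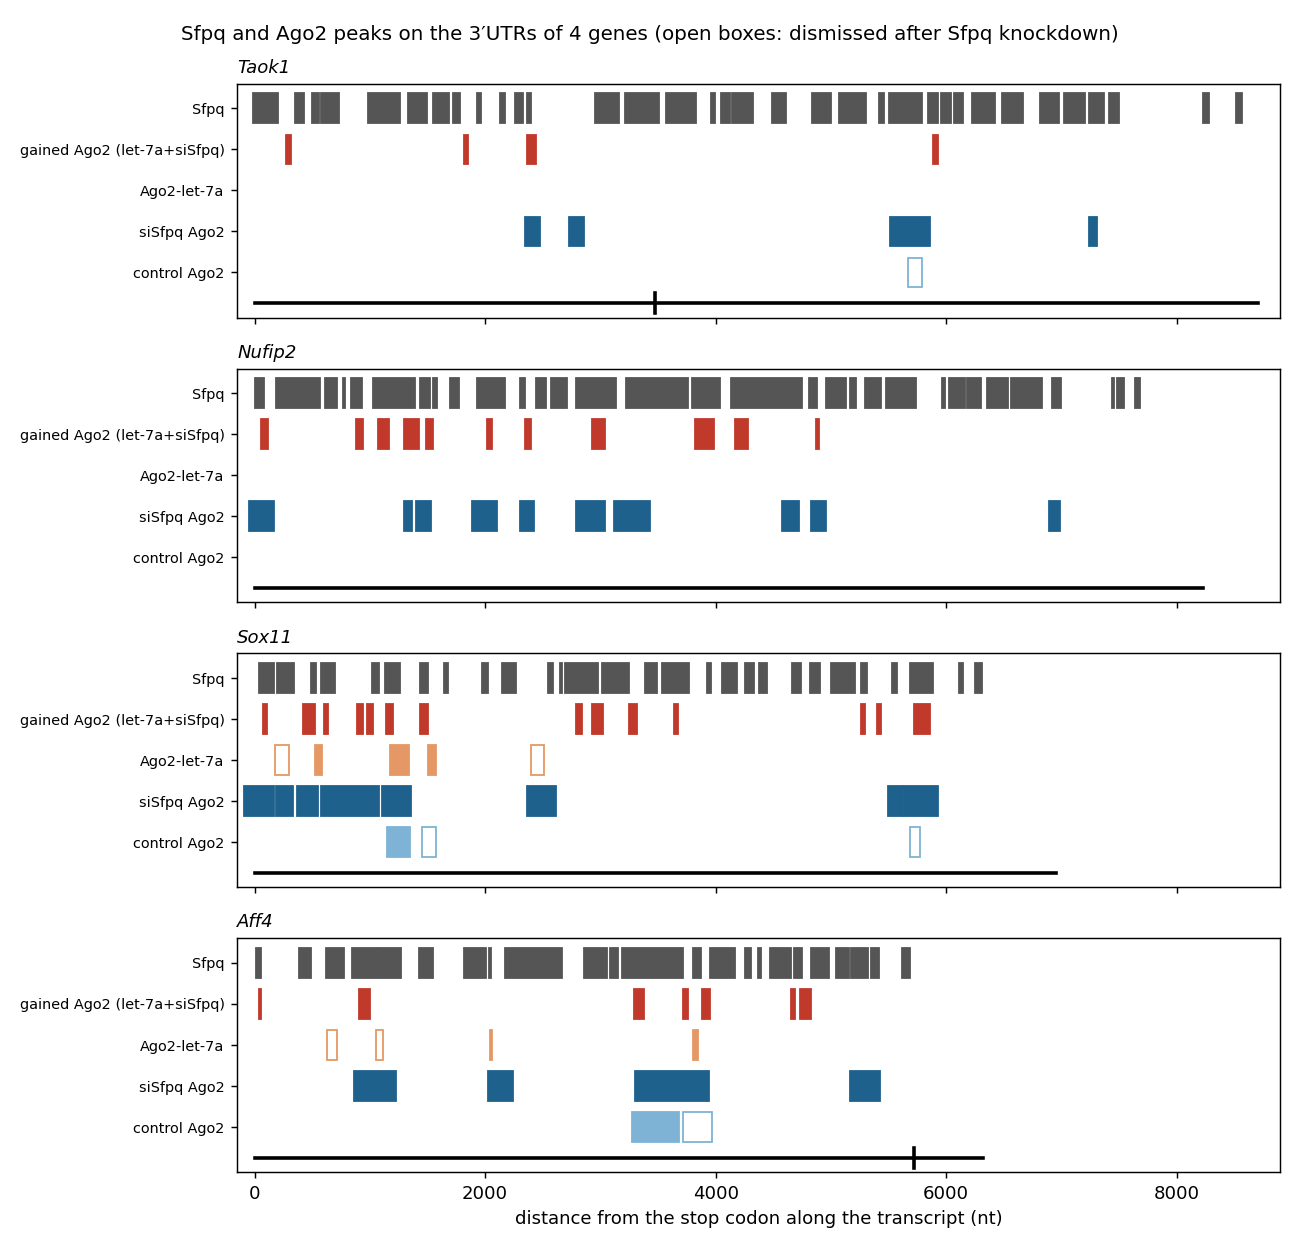
Peaks on the 3′UTRs of Taok1, Nufip2, Sox11 and Aff4 by distance from the stop codon in nt (horizontal axis), 1 row for each list, with the longest annotated 3′UTR as a black line and the end of the shortest as a tick where they differ. Boxes are peaks, and open boxes in the Ago2-let-7a and control Ago2 rows are peaks dismissed with siSfpq. Sfpq peaks run along most of each 3′UTR but not to its end, Nufip2 has gained and siSfpq Ago2 peaks but no Ago2-let-7a or control Ago2 peak, and Sox11 has peaks of every list within 1360 nt of the stop codon.

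Most Ago2 peaks touched a Sfpq peak, that is, shared at least 1 base with it. Of the gained peaks 28 of 36 did (77.8%, 61.9 to 88.3%), against 45.4% of all gained peaks in 3′UTRs. Of the Ago2-let-7a peaks 7 of 9 did (77.8%, 45.3 to 93.7%), against 27.5% of all. Of the siSfpq Ago2 peaks 25 of 26 did (96.2%, 81.1 to 99.3%), against 45.8%, and of the control Ago2 peaks 6 of 6 (61.0 to 100%), against 52.7%. These backgrounds include genes with no Sfpq peak in the 3′UTR and genes with few, while 53.3% of the length of the 4 3′UTRs lay under one. A longer peak is more likely to share a base by its length alone, and siSfpq Ago2 peaks had a median of 215.5 nt beside median gaps of 65 to 110 nt between Sfpq peaks. With 50% of the Ago2 peak required to lie under Sfpq, the share was 57.7% for siSfpq Ago2 peaks and 58.3% for gained peaks.

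Among the 18 other genes at or above the limit the shares were 81.6% of 174 gained peaks (75.2 to 86.7%), 69.7% of 33 Ago2-let-7a peaks (52.7 to 82.6%), 89.3% of 103 siSfpq Ago2 peaks (81.9 to 93.9%) and 90.9% of 11 control Ago2 peaks (62.3 to 98.4%). Each interval overlapped that of the 4 genes. The 4 genes were in this respect like other genes with as many Sfpq peaks, and no difference between them was resolved at these counts. In the remaining genes with a Sfpq peak, the 4 left out, the shares were 55.9, 42.2, 65.7 and 69.1%.

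**Figure D4:**
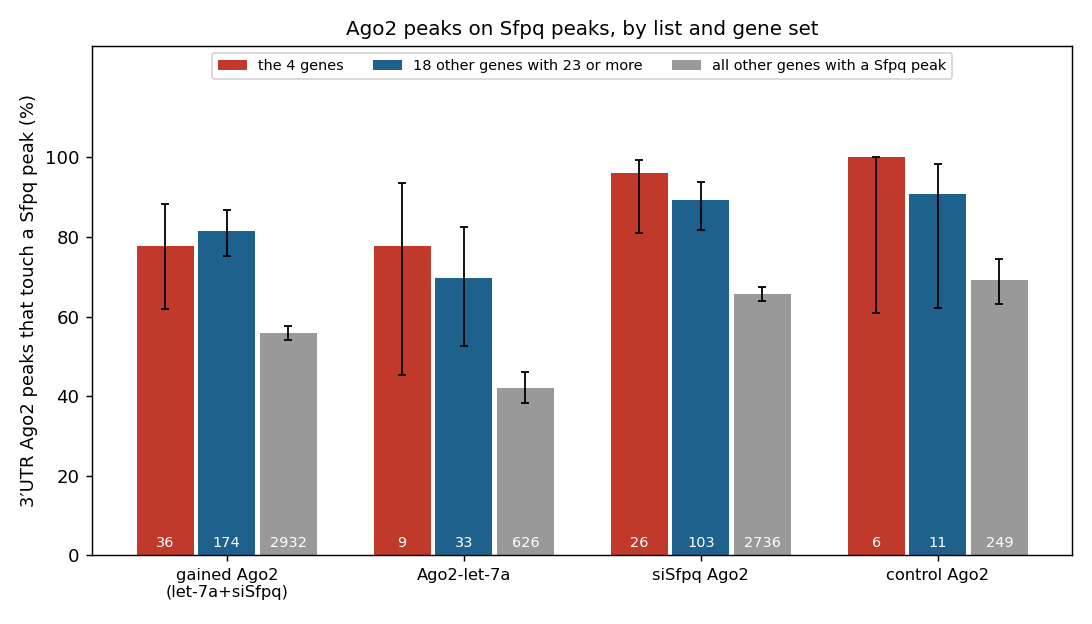
Share of Ago2 peaks in 3′UTRs that touch a Sfpq peak of the same gene (vertical axis, %), for each of the 4 Ago2 lists and 3 gene sets, with 95% Wilson intervals as bars and the number of peaks at the foot of each column. The grey set of all other genes with a Sfpq peak includes the 18 genes shown in blue. For the 4 genes the share is 77.8% to 100%, with intervals that overlap those of the 18 other genes in every list.

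Counted in bases, the overlap was closer to the coverage of the 3′UTR. In the 4 genes 67.3% of the bases of gained peaks, 54.5% of those of Ago2-let-7a peaks, 62.0% of those of siSfpq Ago2 peaks and 72.1% of those of control Ago2 peaks lay under Sfpq, beside 53.3% of all bases. Gene by gene, gained peaks lay under Sfpq for 81.9% of their bases in Nufip2 (62.5% of whose 3′UTR was covered), 66.1% in Sox11 (42.1%), 51.7% in Aff4 (55.7%) and 39.5% in Taok1 (51.9%). Gained peaks of Nufip2 and Sox11 were thus more often under Sfpq than the 3′UTR as a whole, while those of Aff4 and Taok1 were not. The farthest Ago2 peak of any list from a Sfpq peak was 92 nt away, a siSfpq Ago2 peak of Taok1 at chr11:77535007-77535141.

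Of the 116 Sfpq peaks 44 were touched by at least 1 of the 4 Ago2 lists, 13 of 23 in Aff4, 14 of 28 in Sox11, 13 of 31 in Nufip2 and 4 of 34 in Taok1. The touched ones had a median score of 26.5, and the others 15. Their median lengths were 127.5 and 90 nt, a difference that touching itself favours, since a longer peak has more bases to share. The same order of scores held within each gene, with medians of 34 and 15.5 in Sox11, 29 and 17 in Nufip2, 24 and 16 in Aff4, and 21 and 11.5 in Taok1. By single lists it did not always hold, and in Aff4 the 4 Sfpq peaks that Ago2-let-7a peaks touched had a median of 19, as had the others. Length did not follow in Taok1, where touched peaks had a median of 107.5 nt and the others 127.5 nt. Neither the share of touched Sfpq peaks nor their scores were taken over other genes, so none of this can be called particular to the 4.

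In the 3′UTR of Nufip2, alone of the 4 genes, Ago2 peaks were listed after Sfpq knockdown only. That 3′UTR had neither an Ago2-let-7a nor a control Ago2 peak, though an exon of the gene had 1 Ago2-let-7a peak, which was kept. Among the other genes at or above the limit, Slc7a1, Tet1, Cmtm4 and Ubxn7 also had neither in the 3′UTR. Absence from these 2 lists does not mean that Ago2 was not bound. The Ago2-let-7a list holds only peaks raised with the mimic against control cells. Of the 2221 genes with a Sfpq peak, 20.2% had an Ago2-let-7a and 8.19% a control Ago2 peak in the 3′UTR. The 11 gained peaks of Nufip2 lay between bases 55 and 4899 after the stop codon and none in the distal part, and their scores ran from 10 to 29. Its 10 siSfpq Ago2 peaks ran from the stop codon to base 6986 with 16 to 82 reads. Of the 11 gained peaks 7 touched a siSfpq Ago2 peak, and 7 of the 10 siSfpq peaks touched a gained one. The lists with and without the let-7a mimic thus shared some places here and differed at others. The siSfpq Ago2 peaks of Nufip2 had a median of 139.5 nt, a length that favours touching, and the overlap over all genes was not counted. The strongest Sfpq peak, chr11:77711170-77711259, was touched by a siSfpq Ago2 peak of 45 reads and by a gained peak with a score of 13.

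The siSfpq Ago2 peak with the most reads in Nufip2, 82, was chr11:77712521-77712777. It lay wholly under a Sfpq peak with a score of 30 and held a gained peak with a score of 15, chr11:77712660-77712774. A match to the seed shared by the miR-302 and miR-290 families, which are the leading miRNAs of pluripotent cells in mouse, lies in all 3 from base 2978 after the stop codon.

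The mature miRNAs and the matches that lay in or next to Ago2 peaks of the 4 genes are shown here, since let-7a was the transfected miRNA and miR-302b stands for the family of these cells. Capitals mark the seed (bases 2 to 8) in the miRNAs and the 6 nt match to bases 2 to 7 in the 3′UTRs, from RefSeq GRCm38.p6, with the 3′UTRs written on the transcribed strand with T for U.
let-7a-5p: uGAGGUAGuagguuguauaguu
miR-302b-3p: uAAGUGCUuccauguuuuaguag
Nufip2, miR-302 and miR-290 match, chr11:77712701-77712730 (plus strand): attccttacagaGCACTTattaaaaaagtc
Aff4, let-7 match, chr11:53420272-53420301 (plus strand): ctgcctgttctgTACCTCtctagaagatgt
Sox11, let-7 match, chr12:27340419-27340448 (minus strand): ctcgttcccttaTACCTCcttgattgaata
Sox11, miR-302 and miR-290 match, chr12:27340248-27340277 (minus strand): taagactttcagGCACTTcttcccttttga
Taok1, let-7 match, chr11:77535134-77535163 (minus strand): ccaaattaacacTACCTCctccccagttgt

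Matches to the let-7 seed (TACCTC) were few, with 1 in each of the 3′UTRs of Taok1, Sox11 and Aff4 and none in that of Nufip2. In windows of 100 nt, 3 of 301 (0.997%) had one, against 1.96% of windows over 2155 genes with a Sfpq peak. None of the 3 lay under a Sfpq peak, a count too small to set against the 53.3% of the length under one. No Ago2-let-7a peak of the 4 genes held a match, beside 3.04% of that list, and 1 of 36 gained peaks did, beside 1.99%. That peak was chr11:53420245-53420344 of Aff4, with a score of 16, whose match lay 24 nt past the strongest Sfpq peak of the gene. The match of Sox11 lay in a siSfpq Ago2 peak of 77 reads, from cells without the mimic. The match of Taok1 was the only one that extended to 7 nt (CTACCTC), and it lay in no peak but 4 nt from a siSfpq Ago2 peak of 25 reads.

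Matches to the seed of the miR-302 and miR-290 families (GCACTT) numbered 2 each in Taok1, Nufip2 and Sox11 and 3 in Aff4. Of these 9, 6 lay under a Sfpq peak, beside 53.3% of the length, and the count is too small to tell from that share. Of 25 siSfpq Ago2 peaks with a strand 2 held one, beside 14.8% of the list, and of 6 control Ago2 peaks none, beside 25.0%. With a count of 0 taken to allow up to 3, a rough rule and not a Wilson interval, 0 of 6 peaks allows a share of up to 50%. A difference from the list was therefore not detectable at this number. The 2 peaks were those of Nufip2 and Sox11 shown above. In windows of 100 nt, 9 of 301 (2.99%) had this match, against 2.73% of those over all 2155 genes.

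Other families gave small counts. In the 25 siSfpq Ago2 peaks there were matches to miR-17 and miR-20 (CACTTT, which overlaps the match of the miR-302 family) in 4, beside 11.97% of the list, and to miR-30 (GTTTAC) in 4, beside 5.04%. Matches to miR-25 and miR-92 (TGCAAT) were in 3, beside 5.21%, to miR-125 (TCAGGG) in 2, beside 7.03%, and to miR-19 (TTGCAC) and miR-9 (CCAAAG) in 1 each, beside 8.19% and 6.98%. All seeds were searched on the transcribed strand only. In the 36 gained peaks only the miR-302 and miR-290, the let-7 and the miR-17 and miR-20 seeds were matched, in 1 peak each. Most Ago2 peaks of these 3′UTRs thus held no match to the seeds searched, and a missing match says only that these letters are not within the listed peak. A sequence for miR-124 was not used here.

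Sox11 and Aff4 had 3′UTR peaks of all 4 Ago2 lists. In Sox11, within 1360 nt of the stop codon lay the strongest peak of each list but the control Ago2 one. The Sfpq peak chr12:27339960-27340089 had a score of 78, the highest of the gene. A siSfpq Ago2 peak of 241 reads (chr12:27339861-27340118) covered it, a gained peak with a score of 34, the highest of the 36, lay inside it, and an Ago2-let-7a peak with a score of 17, the highest of the 9, touched it. A control Ago2 peak of 10 reads was listed there too. Neither the Ago2-let-7a nor the control Ago2 peak at this place was dismissed.

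Next to it, at bases 1437 to 1506, a Sfpq peak with a score of 51 and a gained peak with a score of 20 had the same ends, chr12:27339715-27339784. A control Ago2 peak of 12 reads reached into them (chr12:27339646-27339765) and was dismissed, while the Ago2-let-7a peak that abutted them (score 9) was kept. No siSfpq Ago2 peak was listed at this place. Another dismissed control Ago2 peak of Sox11, of 17 reads, lay at chr12:27335453-27335535, where a Sfpq peak with a score of 44, a gained peak with a score of 17 and a siSfpq Ago2 peak of 39 reads were also listed.

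Of the 5 Ago2-let-7a peaks of Sox11, 2 were dismissed, with scores of 14 and 11, and 3 were kept, with scores of 17, 9 and 8. The dismissed peak with a score of 14, chr12:27338715-27338819, lay 40 nt from the nearest Sfpq peak, and that with a score of 11, chr12:27340925-27341039, touched one with a score of 27. The scores of dismissed and kept peaks overlapped. A siSfpq Ago2 peak was listed at both dismissed places, of 37 and 48 reads.

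In Aff4 both control Ago2 peaks lay at bases 3276 to 3964, with 3 of the 7 gained, 1 of the 4 Ago2-let-7a and 1 of the 4 siSfpq Ago2 peaks. The control list had a peak of 35 reads there (chr11:53418791-53419198), which was kept, and one of 18 reads (chr11:53419236-53419479), which was dismissed. The siSfpq list had a single peak that touched both, of 280 reads and 644 nt (chr11:53418815-53419458), the one with the most reads in the 4 genes. The gained peak with a score of 9 lay inside a Sfpq peak with a score of 30, the one with 23 directly beside that peak, and the one with 24 at 5 nt from a Sfpq peak with a score of 17. An Ago2-let-7a peak with a score of 10, which was kept, lay inside a Sfpq peak with a score of 45. The other kept Ago2-let-7a peak of Aff4 had a score of 12, and the dismissed ones, at bases 630 to 714 and 1050 to 1114, had scores of 8 and 10.

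Aff4 also showed gained peaks on either side of its strongest Sfpq peak. That peak, chr11:53420195-53420259, was touched at its proximal end by a gained peak with a score of 14 and at its distal end by the one with the let-7 match. No Ago2-let-7a, siSfpq or control Ago2 peak was listed on it.

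Of the 4 genes, Taok1 had the fewest Ago2 peaks for its number of Sfpq peaks, but other genes at or above the limit had fewer still. Ubxn7, with 26 Sfpq peaks, had 4 siSfpq Ago2 peaks and none of the other Ago2 lists. Tet1, with 28, had 3 gained and 3 siSfpq Ago2 peaks only. The gained peaks of Taok1 had scores of 12 to 16, and 2 of the 4 touched a Sfpq peak. Its single control Ago2 peak, of 10 reads at chr11:77532077-77532199, lay wholly under a Sfpq peak with a score of 20 and was dismissed. A siSfpq Ago2 peak of 32 reads was listed over the same place (chr11:77532010-77532358), and it also touched the strongest Sfpq peak of the gene, which had a score of 29. The dismissed list and the siSfpq Ago2 list both use the siSfpq libraries, and read counts do not carry depth, so the values stand side by side only.

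Dismissed shares were taken over the 4 genes. Of 9 Ago2-let-7a peaks 4 were dismissed (44.4%, 18.9 to 73.3%), against 72.0% of the 987 peaks in 3′UTRs. Of 6 control Ago2 peaks 4 were dismissed (66.7%, 30 to 90.3%), against 53.0% of 338. Both intervals include the share of the whole list, so no difference from it was resolved. All 8 dismissed peaks were in the close class. In the 18 other genes at or above the limit 22 of 33 Ago2-let-7a peaks (66.7%, 49.6 to 80.3%) and 4 of 11 control Ago2 peaks (36.4%, 15.2 to 64.6%) were dismissed.

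Gained let-7a peaks and dismissed control Ago2 peaks come from different libraries, and at 3 of the 4 dismissed control Ago2 peaks a gained peak shared a base, as at both kept ones. Over all genes 61.5% of dismissed and 72.3% of kept control Ago2 peaks in 3′UTRs were touched by a gained peak. The 2 lists of Ago2 peaks after Sfpq knockdown, from cells with and without the mimic, shared places as well. Of the 36 gained peaks 19 touched a siSfpq Ago2 peak, and 15 of the 26 siSfpq peaks touched a gained one, with 7 of 14 gained peaks in Sox11, 4 of 7 in Aff4 and 1 of 4 in Taok1. This overlap was not counted over all genes, so it cannot be called a trait of the 4.

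By count, the 4 genes together had fewer peaks of each list outside the 3′UTR than in it. This did not hold in every gene, and Aff4 had 4 of its 9 siSfpq Ago2 peaks in the 3′UTR. Sfpq peaks in exons numbered 11 in Aff4, 8 each in Taok1 and Nufip2 and 3 in Sox11, all of them sharing bases with coding sequence, with scores of 8 to 24. Introns held 9 in Aff4, 7 in Taok1 and 5 in Nufip2. The 3′UTR thus held 116 of 168 Sfpq peaks of these genes, which the choice of the genes favoured, against 7985 of 29715 in all.

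Gained peaks also lay on coding exons, 9 in Nufip2, 7 in Aff4, 4 in Sox11 and none in Taok1. The coding sequence of these genes, in this order, is 2079, 3483, 1188 and 3006 nt long. Their 3′UTRs of 8231, 6315, 6953 and 8705 nt held 11, 7, 14 and 4. Per length, gained peaks were thus denser on coding sequence than in the 3′UTR in Nufip2, Aff4 and Sox11. Those of Nufip2 had scores of 11 to 21, beside 10 to 29 in its 3′UTR. Ago2-let-7a peaks in exons were single in Taok1 and Sox11, both dismissed, and in Nufip2, which was kept, and 2 in Aff4, both kept. The introns of Aff4 had 2 more, both dismissed and in the far class of 500 to 7000 nt. No control Ago2 peak of the 4 genes lay outside the 3′UTR.

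Genes were ranked by likeness of their 3′UTR peak counts over the 5 lists, by Euclidean distance of log2(count + 1). The nearest to Sox11 was Skil (distance 0.960), with 16 Sfpq, 12 gained, 6 Ago2-let-7a, 6 siSfpq Ago2 and 4 control Ago2 peaks, followed by Tnrc6b (1.04). Pafah1b2 stood at a distance of 1.05 from Aff4. The nearest to Nufip2 were Slc7a1 (1.11) and Cds2 (1.21), and to Taok1 Alkbh5 (0.957) and Tet1 (1.13). Alkbh5, an RNA demethylase, had 18 Sfpq peaks on 4097 nt, and Tet1, a dioxygenase that oxidises methylated DNA, 28 on 7962 nt, both without an Ago2-let-7a peak.

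Relatives and partners of the 4 proteins had far fewer Sfpq peaks in their 3′UTRs. Over all 10668 genes with a listed peak 20.8% had a Sfpq peak in the 3′UTR, 15.1% had a gained one and 21.7% a siSfpq Ago2 one. Among 12 other kinases and factors of the Hippo pathway 7 had a Sfpq peak, 4 a gained and 8 a siSfpq Ago2 peak, with at most 6 Sfpq peaks, in the coactivator Yap1. The kinase Lats1 had 9 gained and 5 siSfpq Ago2 peaks but 1 Sfpq peak. The kinases closest to Taok1 by name, Taok2 and Taok3, had no Sfpq peak.

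Among 6 partners and relatives of Nufip2, 3 had a Sfpq peak, with 10 each in Rc3h1 and Rc3h2, which encode the RNA-binding Roquin proteins, and 6 in Fmr1. They had 2, 3 and 0 gained peaks. Among 5 other Sox genes Sox2 had 4 and Sox4 3 Sfpq peaks, with 3 and 2 gained ones. Among 15 other AFF proteins and parts of the super elongation complex 4 had Sfpq peaks, 7 in Eaf1, 3 in Aff1, 2 in the cyclin Ccnt2 and 1 in Mllt1, and Cdk9, the kinase of the complex, had none. Since the 4 genes were chosen for counts that few genes reach, lower counts in relatives were to be found and say nothing of families. At least 1 Sfpq peak was in 7 of 12, 3 of 6, 2 of 5 and 4 of 15 of these relatives, against 20.8% of all genes with a listed peak. The relatives include genes without a peak in any list, so the 2 kinds of share have unlike bases. The lengths of their 3′UTRs were not compared.

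The lists hold binding and not expression. Of 10 markers of pluripotent cells, 9 had at least 1 peak in some list and 7 a Sfpq peak in the 3′UTR, among them Lin28a (6) and Sox2 (4), and all of these were below the 23 of Aff4. RNA levels of the 4 genes were not measured in these lists, and the part of transcript abundance in the number of peaks was not tested.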

How the data were processed

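The authors trimmed reads with cutadapt, mapped them to mm10 with STAR and Bowtie2 (no versions were given in the sources used) and merged the 3 replicates of a condition before peak calling. The deposited files are 11 peak lists. The Sfpq, Ago2-let-7a and gained lists carry the authors' dCLIP score, with a threshold of 7, and the control and siSfpq Ago2 lists a read count per peak that the authors obtained with pyicoclip, with a minimum of 10 reads. The header of the siSfpq list names siCtr and siSfpq cells and the study's methods siSfpq cells alone, and it was read as the latter. Per the file headers, dismissed peaks were reduced with siSfpq, and each was matched to its full list by position and strand. A dismissed let-7a peak was also required to show no change between siSfpq and siCtr cells without the mimic. Depth is not in the lists.

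Peaks were taken by gene symbol and the location 3′UTR. The 3′UTR was the longest in RefSeq GRCm38.p6, matched for 2216 of 2221 genes. Peak ends were counted as included, and a shift of 1 nt between 0-based and 1-based starts is not settled. Bases and words were counted with Python 3.11.15 and pysam 0.24.0, on functions tested on simulated intervals. The 4 genes, the gene lists and the named genes (those with 21 or more Sfpq peaks, the 2 nearest by counts, and list members with a peak) were chosen with earlier results of these data known. A gene that these rules name is not reported here.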

Additional observations from a re-analysis of the deposited data

How the results depend on the processing

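No paired analysis was possible because the lists were made from merged replicates and no result comes from a test, and for the same reason no replicate could be left out. Of 58 alternative values, 48 stayed within 1.5 times the count, or within the interval of the share or ratio, and 10 moved. A change of direction was defined only for the density ratios of the Sfpq words, and none of those reversed. With Sfpq peaks of score 15 or more, the 4 genes had 76 of 116 peaks (Taok1 14 of 34), over 37.3% of the 3′UTR in place of 53.3%. From the first to the last listed peak, the covered share was 57.0%. With scores of 15 or more, 17 of 36 gained peaks remained, and 1 Ago2-let-7a peak, which was kept (0% dismissed). With 20 or more reads, 1 control Ago2 peak remained, also kept (0%). When 50% of the Ago2 peak had to lie under Sfpq, the share was 58.3% of gained and 57.7% of siSfpq Ago2 peaks. With a 7 nt match, 0 Ago2 peaks in place of 2 matched the let-7 seed. Small counts limit all shares of Ago2-let-7a and control Ago2 peaks.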
